A study of Mus musculus with 9 samples.

Results

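CD4 single-positive (CD4SP) thymocytes of mice with a conditional deletion of Brd1 were compared with CD4SP thymocytes of control mice. Each genotype was measured on 1 array, and these are 2 of the 9 arrays of the series. They were chosen by their labels alone: the array labelled CD4SP from the Brd1 conditional knockout (CKO), leaving aside the CKO array of CD4SP cells that lacked surface TCRβ, and the array labelled CD4SP from the control. The other 7 arrays hold double-positive (DP) and CD8 single-positive (CD8SP) cells of both genotypes, TCRβ-negative CD4SP cells of the CKO, and CD8SP cells of both genotypes from mice with OT-I, a transgene for a T cell receptor that recognises MHC class I.

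The control mouse genotype was Brd1+/+ with Tie2-Cre, and the CKO genotype was Brd1flox/flox with Tie2-Cre, so that both groups carried the recombinase. Both were of the C57BL/6 strain and 8 weeks old, and the OT-I mice, used here only for comparison, were 14 weeks old. Tie2 is active in endothelial cells and in blood-forming precursors, so deletion by Tie2-Cre is not limited to T cells. Cells were sorted by surface TCRβ, CD4 and CD8, and RNA equivalent to 30000 cells was labelled per array. The sources used here do not say whether animals were pooled or whether arrays of one genotype come from the same animals. The labels describe a biotin labelling, but the files come from an Agilent scanner and hold 1 colour, Cy3. "CKO array" and "control array" below mean the CD4SP arrays labelled so.

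Brd1, also called Brpf2, is a bromodomain scaffold that binds MYST family histone acetyltransferases, chiefly Kat7, together with Ing4 or Ing5 and Meaf6. These complexes acetylate histone H3 and H4 at genes. CD4SP thymocytes arise from DP cells whose receptor recognises MHC class II: after positive selection they silence the recombinase genes and Cd8, keep Cd4 under the factor Zbtb7b, and then gain the receptors that let them leave the thymus.

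A level below is the log2 signal of a gene minus the log2 of the 75th percentile over all probes of the same array, and a difference is the CKO level minus the control level on that log2 scale. With 1 array per group there was no replicate, so a difference between the 2 arrays has no replicate error beside it and no p-value. The 75th percentile lay at 87.4 intensity units on the control array and at 140 on the CKO array, and 40.3% and 45.4% of 55537 probes were well above background. Both arrays lay on slide 1. In the CD8SP pair the control lay on slide 1 and the CKO on slide 2, so genotype and slide cannot be told apart there. Of 19780 genes or unnamed transcripts well above background on at least 1 of the 2 arrays, 684 (3.46%) were more than 2-fold higher and 1037 (5.24%) more than 2-fold lower on the CKO array, 8.7% in all, and 48.3% of those with a measured difference were above 0. Among the 11942 with a gene symbol, 278 (2.33%) were higher and 712 (5.96%) lower, and 49.7% of the measured differences were above 0. The median difference over all genes was -0.02. Where both arrays were well above background, as for 17064 genes, the levels correlated across genes with r = 0.983, the median size of a difference was 0.28, and the error that the scanner software attaches to a difference had a median of 0.21. Dim genes passed 2-fold more often: among genes split by level into 4 equal bins, 8.79% did in the dimmest bin and 2.53% in the brightest. In 2571 genes, further probes were well above background on both arrays, and their difference departed from that of the probe used by a median of 0.22. Of 84 further probes of genes past 2-fold, 77 had the same direction and 40 were past 2-fold the same way.

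**Figure D1:**
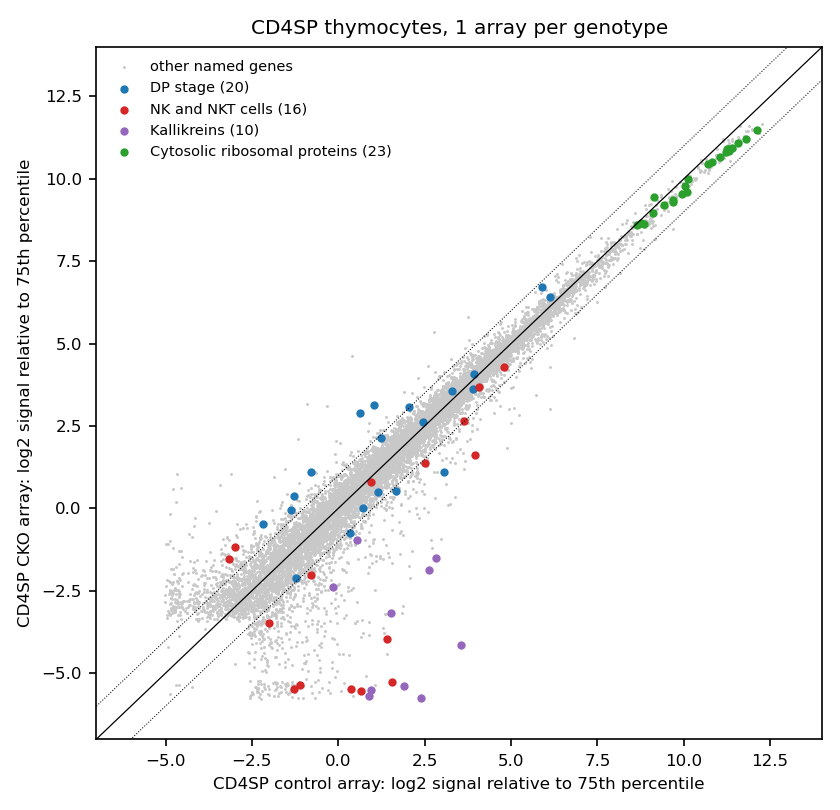
Level of each gene with a symbol on the CD4SP control array (horizontal axis) and the CD4SP CKO array (vertical axis), both as log2 signal relative to the array's 75th percentile. Solid and dotted lines mark equal levels and 2-fold differences; the kallikreins (purple) and 10 of 16 NK and NKT genes (red) lie below the lower dotted line, 7 of 20 DP-stage genes (blue) lie above the upper one, and all 23 ribosomal protein genes (green) lie between the dotted lines.

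The Brd1 transcript itself was not lower on the CKO array. Its level was -1.09 on the control and -0.99 on the CKO array, a difference of 0.10 beside a scanner error of 0.24. It came from 1 probe, whose position relative to the floxed part of the gene is not given in the sources used here, so it does not check the deletion. Of 11 measured genes of Brd1 and its partners, 1 was past 2-fold: Brpf3, the paralogue of Brd1, with a level of -0.42 on the control and 0.83 on the CKO array. The median difference of the list was 0.19. The catalytic subunit Kat7 had levels of 4.38 and 4.50, its relative Kat6a 1.98 and 2.28, and the scaffold Brpf1 3.34 and 3.65. The reader subunit Ing5 (0.01 and -0.27) was the 1 member with a value below 0.

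The co-receptor genes matched the sorted surface type on both arrays. Cd4, the MHC class II co-receptor, had levels of 6.54 on the control and 6.38 on the CKO array, against 3.50 in the CD8SP control. Cd8a, the first chain of the MHC class I co-receptor, had levels of -1.22 and -2.11, and Cd8b1, the second chain, 1.67 and 0.54, a difference of -1.14 that was past 2-fold. Both Cd8 chains were lower on the CKO array than on the control array, and both lay more than 4-fold under the DP and CD8SP control arrays (5.46 and 4.60 for Cd8a, 6.65 and 5.64 for Cd8b1). A further Cd8a probe differed by -0.14. Zbtb7b, the factor that fixes the CD4 fate and is also called ThPOK, had levels of 7.79 and 7.06, a difference of -0.73, with 2 further probes at -0.40 and -0.34. Runx3, which represses Cd4 in the CD8 lineage, had levels of -0.31 and -0.13. Differences in Gata3 (0.03), Tcf7 (-0.02), Ikzf1 (-0.01), Lef1 (0.08), Satb1 (0.19) and Tox (0.18), the factors around the choice of lineage, were all smaller in size than 0.28, the median size of a difference. Myb, a factor of immature thymocytes, was the 1 gene of these 17 past 2-fold upwards, with levels of 2.32 on the control, 3.95 on the CKO and 6.08 on the DP control array.

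Genes of the preceding DP stage formed a group in which several members were higher on the CKO array. Of 20 measured, 7 were more than 2-fold higher (2.33% of all named genes) and 3 more than 2-fold lower (5.96% of all named genes), with a median difference of 0.29. The members include Cd8a, Cd8b1 and Dntt, so the list overlaps others here. Rag1 and Rag2 encode the recombinase that assembles T cell receptor genes. Rag1 had a level of 0.62 on the control, 2.88 on the CKO, 8.07 on the DP control and 8.07 on the TCRβ-negative CKO array, so the CKO level was 4.79-fold above the control and far below DP cells. Rag2 had levels of -1.36, -0.04, 4.75 and 4.69 in the same order, which is 2.48-fold higher on the CKO array. The endoribonuclease gene Endou had levels of 1.02 and 3.13, with 7.16 in DP control cells. Arpp21 (-2.18 and -0.48), the Tudor domain gene Tdrd5 (-1.29 and 0.39; further probe 2.23) and the aquaporin Aqp11 (2.04 and 3.07; further probe 1.29) were also among the 7. On each of the 7 the CKO level stayed between 3.14 and 5.19 under the DP control level. Dntt, which adds bases at receptor junctions, had levels of 5.90 and 6.71, a difference of 0.81 that did not pass 2-fold. With normexp background correction and quantile normalization together, called normexp correction below, 3 of the 20 were higher and 1 lower, and the median was 0.36.

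The same list held members on the other side. Ptcra, the pre-TCR alpha chain, had levels of 0.33 on the control and -0.74 on the CKO array. Trib2, a pseudokinase, had levels of 3.07 and 1.10, which is 3.92-fold lower, and the third was Cd8b1. Trib2 was lower past 2-fold in the other pairs too, with 2.46 and -2.29 in DP, 1.60 and 0.47 in CD8SP and 2.54 and 1.48 in OT-I cells. Of the 15 listed genes that were more than 2-fold higher in the DP control than in the CD4SP control, 10 had a positive difference in the CD4SP pair. In the other pairs the list went differently: its median was 0.12 for DP, -0.75 for CD8SP and -1.64 for OT-I cells. Among 14 genes of V(D)J recombination and end joining, the members past 2-fold were Rag1, Rag2 and Lig4, the ligase that closes the joints, with levels of 0.14 and 1.41. In all, 12 of the 14 had a positive difference, including the nuclease Dclre1c (0.79, further probes 0.89 and 0.96), the Ku subunit Xrcc6 (0.59) and the kinase Prkdc (0.46), and the median was 0.44.

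**Figure D2:**
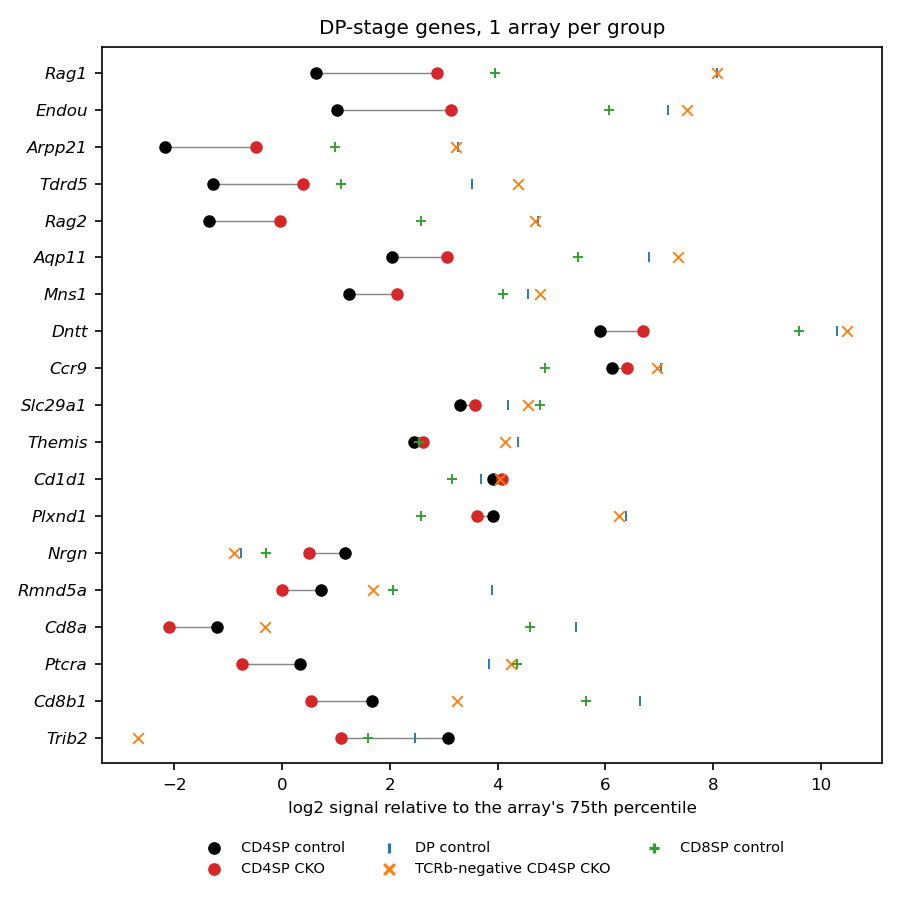
Level of each of 19 DP-stage genes (log2 signal relative to the array's 75th percentile) on the CD4SP control array (black), the CD4SP CKO array (red), the DP control (blue bar), the CD8SP control (green plus) and the TCRβ-negative CD4SP CKO array (orange cross), ordered by the CD4SP difference. For the first 6 genes, Rag1 to Aqp11, the red point lies between the black point and the DP level.

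Earlier markers, of the double-negative stage and of Notch signalling, were mostly dim. Of 9 measured, 1 was higher and 2 lower past 2-fold. Dtx1, a Notch target, had levels of 2.95 on the control and 4.02 on the CKO array and was past 2-fold upwards in all 4 pairs. Bcl11a, a factor of progenitors and B cells, had levels of -1.48 and -2.80. Hhex, also a progenitor factor, was well above background on the control array alone.

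The receptor complex and its proximal kinases held their levels within 2-fold. Of 23 measured genes none was past 2-fold, 14 had a positive difference, and the median was 0.11. The CD3 chain gene Cd3d had levels of 9.43 and 9.16, and the widest difference was in the phosphatase gene Ptpn22 (3.74 and 4.58). Next came the kinase Fyn (1.50 and 2.11), the phosphatase Ptprc, known as CD45 (3.83 and 4.39), and the zeta chain Cd247 (2.84 and 3.39).

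Genes that respond to receptor signals in positive selection were split. Of 18 measured, none was higher (background of named genes 2.33%) and 3 were lower past 2-fold (background 5.96%), and the median was -0.25. The median depended on the scaling. With quantile normalization alone 2 were lower and the median was -0.06, and with normexp correction 1 was lower and the median was -0.07. Itm2a, a membrane protein gained on selection, had levels of 9.17 on the control and 8.16 on the CKO array. The inhibitor of E proteins Id2 had levels of 5.41 and 4.40, and the nuclear receptor Nr4a2 -0.53 and -1.54 with a further probe at -1.04. All 3 lay just past the 2-fold line, at -1.01. The related Nr4a1, also called Nur77, had levels of 6.88 and 6.37, whereas Cd69, the early activation receptor, had 4.15 and 4.88. Egr1 (4.29 and 4.55), Egr2 (3.52 and 3.68), the other E protein inhibitor Id3 (4.49 and 4.79) and the surface receptor Cd5 (8.29 and 8.14) differed by less than 0.31 each.

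Mature thymocyte and egress genes showed a median difference near 0, at -0.01, with 16 of 33 above 0. The trafficking genes kept close: S1pr1, the receptor for exit, had levels of 4.30 on the control and 4.22 on the CKO array, Klf2, which drives it, 6.50 and 6.77, the chemokine receptor Ccr7 8.26 and 7.86, and the cytokine receptor Il7r 4.67 and 4.90. None of the 33 was higher past 2-fold and 3 were lower. Lgals1, galectin-1, had levels of 6.13 and 4.30, which is 3.55-fold lower, and was lower past 2-fold in the other 3 pairs too. The calcium-binding S100a6 (4.55 and 3.29) and the LIM protein Crip1 (8.17 and 7.15) were the others. By contrast, the membrane protein gene Ms4a6b (0.41 and 1.38), the GTPase Gimap3 (6.28 and 7.05), the membrane protein Ms4a4b (6.89 and 7.60) and the quiescence factor Foxp1 (4.62 and 5.35; further probes 0.73 and 0.82) had the widest positive differences, none past 2-fold. The list's median was 0.51 for DP, 1.05 for CD8SP and 1.26 for OT-I cells.

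CD4 lineage genes passed 2-fold in few cases. Of 24 measured, 1 was higher and 2 lower past 2-fold, 9 had a positive difference and the median was -0.17 (-0.09 with normexp correction). St8sia6, a sialyltransferase, was well above background on both CD4SP arrays, with levels of 1.00 on the control and -0.97 on the CKO array (3.89-fold lower), against -4.57 in CD8SP control cells. The surface glycoprotein gene Cd200 had levels of 1.93 and 0.54 and was lower past 2-fold in all 4 pairs. Slamf6, a receptor of the SLAM family, had levels of 1.70 and 2.81 with a further probe at 1.24. Several TNF receptor family and costimulatory genes were lower without passing 2-fold: Tnfrsf18 (6.86 and 6.06), Tnfrsf4 (7.20 and 6.45), Icos (5.78 and 5.12; further probe -0.70) and the chemokine receptor Ccr4 (1.99 and 1.15). Of 12 regulatory T cell genes none was past 2-fold, 4 were above 0 and the median was -0.38. Foxp3, the defining factor, had levels of 0.50 and 0.82, and Ikzf2, Helios, 1.72 and 1.20. The enzyme Nt5e (1.38 and 0.61) and the TGF-beta anchor Lrrc32 (1.86 and 1.18) were among the lower ones. In sorted bulk RNA, fewer cells of a type and less RNA per cell cannot be told apart, here and in the lists below.

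**Figure D3:**
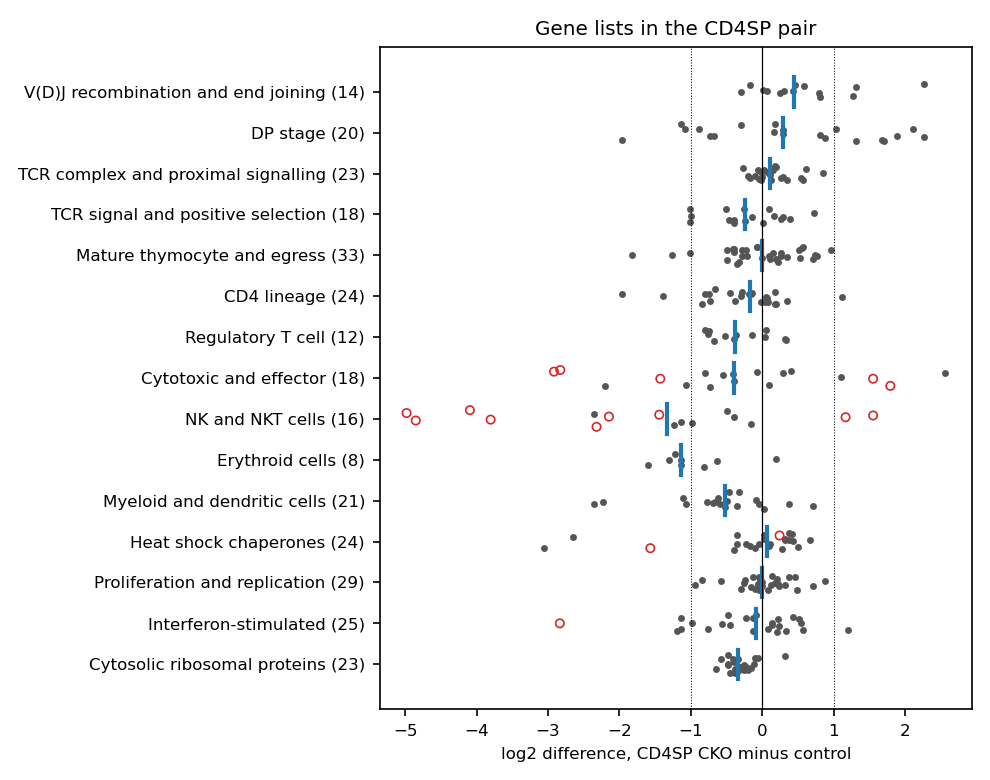
Difference (CKO minus control, log2) of every measured gene of 15 lists in the CD4SP pair, with the number compared in brackets. Grey points are measured on both arrays, red circles are bounds for genes well above background on 1 array, blue bars are list medians, and dotted lines mark 2-fold; the NK and NKT and the erythroid lists have medians of -1.34 and -1.14, and the V(D)J list has the highest median of those drawn, 0.44.

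Receptors and adaptors of natural killer (NK) and NKT cells made up the T cell-related group with the most members past 2-fold. Of 16 measured genes, 10 were lower (background of named genes 5.96%) and 2 higher, and the median was -1.34. Among the 7 well above background on both arrays, 3 were lower and none higher, with a median of -0.99. For genes above background on the control array alone the filter favours a lower call: 405 of 490 were lower past 2-fold. Of the 16 listed genes, 14 were well above background on the control array and 9 on the CKO array. The log2 of their summed signal was 6.51 on the control and 5.57 on the CKO array. With normexp correction 5 of the 16 were lower and none higher, and the median was -0.70. Klrb1c, which encodes NK1.1, had a level of 1.41 on the control array and was not well above background on the CKO array (-3.96), at least 28.9-fold lower. Klra8, the Ly49H receptor gene, had a level of 1.54 and was not well above background on the CKO array (-5.26), at least 31.6-fold lower. On the CD8SP control array Klra8 had a level of -2.34 and Klrb1c of -2.80. Both genes were well above background on the CD4SP control array alone of the 9 arrays. Neither had a further probe well above background on both CD4SP arrays, and averaged over probes their bounds were -2.82 and -3.68.

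Further receptors of the family followed the same order. Klrd1, CD94, had levels of 0.65 on the control and -5.53 on the CKO array (at least 17.1-fold lower), but 2.19 and 2.16 in the CD8SP pair. Klra9 (0.36 and -5.47), Klra7 (-1.12 and -5.37) and Klre1 (-1.29 and -5.49) were also well above background on the control array alone, and Klra1 (0.96 and 0.80) differed little. Of 7 Klr genes compared, 7 were well above background on the control array and 1 on the CKO array. Ly49 genes are close copies of each other, so their probes may share transcripts. Tyrobp, the DAP12 signalling adaptor of NK and myeloid cells, had levels of 3.97 and 1.61. Zbtb16, the PLZF factor of NKT cells, had levels of -0.80 and -2.03, and the Fc receptor chain Fcer1g 2.51 and 1.38. Against these, Eomes and Cd160 were well above background on the CKO array alone. The NK markers Klrk1, Klrc1, Ncr1 and Klri2 were not well above background on either array. Klra3 was not analysed here.

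Effector genes were divided. Of 18 measured, 4 were higher (2.33% of all named genes) and 5 lower (5.96% of all named genes) past 2-fold, and the median was -0.40. Among the 13 well above background on both arrays, 2 were higher and 2 lower. With normexp correction 2 of the 18 were higher and 3 lower. Gzma, granzyme A, had levels of 2.78 on the control and 5.34 on the CKO array (5.89-fold higher), and it lay at 5.47 in DP control and 8.24 in TCRβ-negative CKO cells. Gzmb, granzyme B, went the other way, with levels of 1.56 and -0.65 (4.62-fold lower). The chemokine gene Ccl5 had levels of 3.88 and 4.98 and was past 2-fold upwards in all 4 pairs, and Ccl3 was well above background on the CKO array alone, at least 3.46-fold higher. Cytokine genes of activated or innate-like T cells were seen on the control array alone: Il4 had a level of -0.52 (at least 7.55-fold lower on the CKO array), Csf2 of -0.61 and Il2 of -1.98. Ifng (1.11 and 0.56) and the pore protein Prf1 (2.13 and 2.06) were within 2-fold. Of 11 CD8 lineage genes, Klrd1 and Cd8b1 were lower past 2-fold and Eomes was higher. The others were within 2-fold: Tbx21, the T-bet factor, had levels of 1.08 and 0.28, and the median was -0.57.

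**Figure D4:**
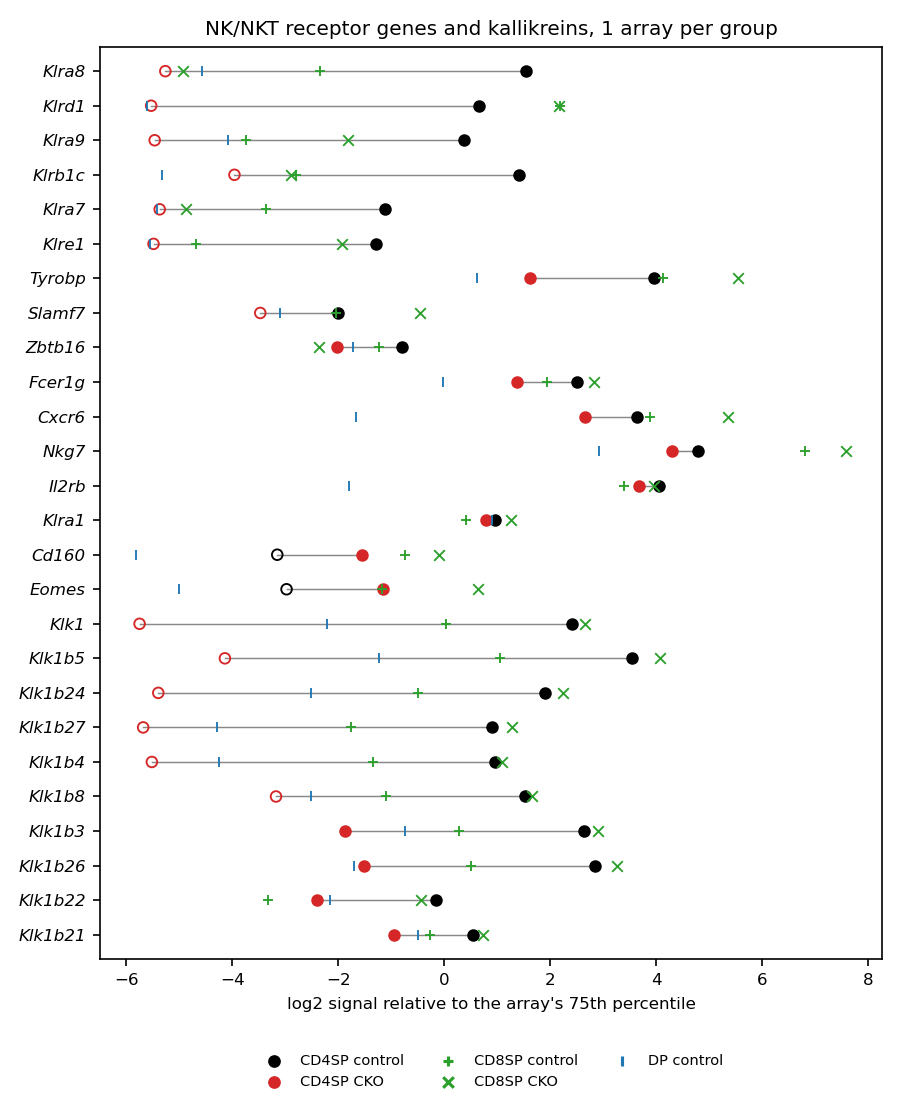
Levels (log2 signal relative to the array's 75th percentile) of 16 NK and NKT genes and 10 kallikreins on the CD4SP control (black) and CKO (red) arrays, with the CD8SP control (green plus), CD8SP CKO (green cross) and DP control (blue bar). Open circles are not well above background; 6 kallikreins and 7 NK and NKT genes are open on the CD4SP CKO array, while the CD8SP CKO level lies above the CD8SP control level for every kallikrein drawn.

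Markers of other blood cells were lower on the CKO array in several lists, and their part in the results above was not tested. Of 8 measured erythroid genes, 5 were lower past 2-fold (background of named genes 5.96%), all of them haemoglobin genes. Hba-a2 had levels of 5.57 on the control and 4.26 on the CKO array, Hba-a1 3.05 and 1.91, Hbb-bt 2.31 and 1.09, Hbb-b2 0.47 and -1.12, and Hbb-bs -1.34 and -2.48. Whether their probes share transcripts was not tested, so the 5 may not be independent. The other 3 were within 2-fold: Car2 was 1.76-fold lower, Gata1 1.56-fold lower and Car1 1.15-fold higher. The log2 of the summed erythroid signal was 6.07 on the control and 4.85 on the CKO array, and the erythroid genes Alas2, Klf1 and Epor were not well above background on either. Normexp correction left 3 erythroid genes lower past 2-fold and a median of -0.69 in place of -1.14. Of 21 myeloid and dendritic genes, 4 were lower past 2-fold, none higher, and the median was -0.52. They were Tyrobp, the pore protein Mpeg1 (2.25 and 0.02) and the MHC class II chains H2-Ab1 (5.59 and 4.53; further probe -1.01) and H2-Eb1 (5.54 and 4.43). Of the 21, 3 had a positive difference, the widest in Lyz2 (1.63-fold higher). The summed myeloid level was nearly the same, 9.45 and 9.47, and Cd14, Clec9a, Xcr1 and Mrc1 were not well above background on either array. Of 7 granulocyte genes 2 were lower past 2-fold, S100a8 (-0.08 and -3.02) and S100a9 (1.44 and -1.35), the subunits of calprotectin, while Ngp, Ltf, Prtn3, Retnlg and Cxcr2 were not well above background on either. Of the 7 granulocyte genes, 1 had a positive difference, Csf3r (1.17-fold higher). The summed granulocyte level was 7.84 on the control and 8.04 on the CKO array. Among 7 B cell genes Jchain was higher (0.60 and 2.79), with Cd79a, Pax5, Ebf1 and Igll1 not well above background on either array. Of the stromal and epithelial list, 14 of 22 genes were not well above background on either array, among them Foxn1, Aire and Krt8. Epcam was higher (-2.29 and -0.12) and Sparc was at least 5.75-fold lower. Of 4 measured gamma delta T cell genes, 1 was higher, and Cd163l1, the 1 that was lower, was above background on the control array alone. None of 7 sex-linked genes was past 2-fold.

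Tissue kallikreins, secreted serine proteases best known from salivary gland and kidney, had the widest differences of the pair. Of 14 genes in the list, 10 were well above background on the control array and all 10 were lower past 2-fold (background of named genes 5.96%), while 4 were well above background on the CKO array. Most of the 10 thus entered through the control array alone, where the share of all named genes is no fair measure. Of all 490 genes above background on that array alone, 405 were lower past 2-fold. With normexp correction the median of the 16 measured kallikrein and exocrine genes was -2.18 in place of -4.34, with 9 lower in place of 12. The remaining 4 (Klk1b1, Klk1b9, Klk1b11 and Klk1b16) were not well above background on either. The genes lie together on chromosome 7 and are related copies, so that 1 probe may pick up several transcripts and the 10 are not taken as independent. The probe sequences were not compared. To show how alike the family is, the 120 bases before the start of transcription are given for 5 members, from RefSeq on GRCm38.p6, all on the plus strand: Klk1b5 at chr7:44216354-44216473, Klk1b24 at chr7:44188116-44188235, Klk1b4 at chr7:44207313-44207432, Klk1b8 at chr7:43950546-43950665 and Klk1b27 at chr7:44052170-44052289. Capitals mark GTCAGCATCTG, the first run of at least 10 bases that all 5 share, a choice made after seeing the sequences.
Klk1b5: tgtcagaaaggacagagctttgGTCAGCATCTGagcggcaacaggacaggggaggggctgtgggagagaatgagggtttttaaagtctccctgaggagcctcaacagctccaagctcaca
Klk1b24: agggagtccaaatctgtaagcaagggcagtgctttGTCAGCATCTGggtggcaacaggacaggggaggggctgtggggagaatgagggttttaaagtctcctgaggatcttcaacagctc
Klk1b4: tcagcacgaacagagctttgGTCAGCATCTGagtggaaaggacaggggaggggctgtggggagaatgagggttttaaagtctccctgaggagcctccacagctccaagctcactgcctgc
Klk1b8: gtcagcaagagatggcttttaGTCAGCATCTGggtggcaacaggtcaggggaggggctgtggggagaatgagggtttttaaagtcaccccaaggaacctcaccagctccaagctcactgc
Klk1b27: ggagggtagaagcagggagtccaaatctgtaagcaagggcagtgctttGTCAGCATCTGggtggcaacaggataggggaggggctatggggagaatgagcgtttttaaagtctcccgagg
Over the whole promoter windows of 300 bases (250 before and 50 after the start), the 10 pairs among these 5 were 84.3% to 93.2% identical. Among all 14 the pairs ranged from 78.4% (Klk1 and Klk1b8) to 97.7% (Klk1b21 and Klk1b24). On either strand, the capital stretch occurred in the windows of 12 of the 14 kallikreins and in 0.067% of all 32851 promoters. It was in 8 of the 10 that were lower and in all 4 that were not well above background. The 5 shown members, all among the 10 lower ones, hold the stretch by the way it was picked. These counts therefore do not measure enrichment.

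Klk1b5 had a level of 3.55 on the control and -4.14 on the CKO array, where it was not well above background, at least 127-fold lower. Klk1 had levels of 2.41 and -5.75, at least 57.6-fold lower, and Klk1b24 1.90 and -5.40, at least 40.5-fold lower. Klk1b8 (1.52 and -3.18), Klk1b4 (0.96 and -5.52) and Klk1b27 (0.89 and -5.68) were likewise above background on the control array alone. Klk1b3 (2.63 and -1.87) and Klk1b26 (2.84 and -1.50), measured on both arrays, were 22.7-fold and 20.3-fold lower. In the CD8SP pair, which is split over the 2 slides, the order was the opposite, with all 10 higher past 2-fold on the CKO array: Klk1b5 had levels of 1.06 and 4.08 there, and Klk1 of 0.02 and 2.65. In the OT-I pair 4 of the 10 were higher and none lower, and in the DP pair none was higher and 2 were lower. The CD4SP control and the CD8SP CKO arrays were thus the high ones of these pairs. Of the other secreted proteins listed with them, the trefoil peptide Tff1 was at least 26.7-fold lower (1.30 and -3.64). The milk protein alpha-lactalbumin gene Lalba was higher (-0.91 and 3.16, 16.8-fold), and past 2-fold upwards in all 4 pairs.

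Heat shock genes as a group showed little difference, with a median of 0.06 over 24 genes, none higher and 3 lower past 2-fold. Hspa1a, an inducible Hsp70, had levels of 3.17 on the control and 0.11 on the CKO array (8.35-fold lower), and its near-identical copy Hspa1b was not analysed here. Its co-chaperone Bag3 had levels of -0.22 and -2.88 (6.29-fold lower), and the small chaperone Hspb1 had -1.87 on the control array and was not well above background on the CKO array. Other chaperones of the list did not share this: Hspa5 differed by -0.04, Hspd1 by -0.10, Hsph1 by 0.41 and Hsp90aa1 by 0.67, and the factor Hsf1 had levels of 2.52 and 2.55. The 120 bases before the start of the 2 chaperone genes are given because both hold the inverted repeat to which heat shock factors bind, GAANNTTC, in capitals: Hspa1a at chr17:34972157-34972276 on the minus strand and Hspb1 at chr5:135887799-135887918 on the plus strand (RefSeq, GRCm38.p6).
Hspa1a: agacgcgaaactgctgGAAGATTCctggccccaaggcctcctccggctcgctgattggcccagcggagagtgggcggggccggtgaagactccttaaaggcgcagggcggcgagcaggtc
Hspb1: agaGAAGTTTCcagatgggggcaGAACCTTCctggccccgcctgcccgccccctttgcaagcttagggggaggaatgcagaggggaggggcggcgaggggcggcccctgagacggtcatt
Hspb1 holds 2 copies and Hspa1a 1. The motif, which reads the same on both strands, was in 7.86% of all 32851 promoter windows of 300 bases. It was in the windows of all 3 lower genes, in Bag3 only after the start of transcription, and in 6 of the 15 other measured heat shock genes with a promoter in the table, which did not pass 2-fold. The match is a description of these letters only. Bag3 was lower past 2-fold in the other 3 pairs as well, and Hspa1a was lower in the DP pair (0.36 and -1.96) and the CD8SP pair (2.81 and 0.82) but higher in the OT-I pair (1.75 and 4.54).

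Among 22 AP-1 and immediate early genes, 1 was higher and 3 lower past 2-fold. Fosb had levels of -0.66 on the control and 1.09 on the CKO array. Jun had levels of 6.83 and 5.16 (3.18-fold lower), Fosl2 0.05 and -1.20, and the stress gene Gadd45g 3.44 and 1.71. Fosb and Jun, which can pair in 1 factor, thus differed in opposite directions, and the median was 0.13. Of 16 NF-kappaB genes only Nfkbiz, a nuclear inhibitor family member, was past 2-fold (-1.28 and 0.00). The feedback inhibitor Nfkbia had levels of 6.92 and 7.25. None of 13 TGF-beta pathway genes was past 2-fold, with Smad3 the widest (3.17 and 3.84; further probe 0.66).

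Cytokine and chemokine receptors were mostly within 2-fold. Of 25 cytokine receptor genes, Il18r1, the IL-18 receptor, was lower (0.78 on the control and -1.49 on the CKO array, 4.82-fold), and Il12rb1 higher (1.88 and 2.92), although a further Il12rb1 probe differed by -0.62. Of 24 chemokine receptor and adhesion genes none was higher and 4 were lower, with a median of -0.36. P2ry14, a receptor for UDP-sugars, had levels of 0.43 and -2.41 (7.17-fold lower), and the regulators of G protein signalling Rgs16 (0.78 and -0.41) and Rgs1 (2.13 and 1.12) were lower beside Cxcr3. The DP-stage chemokine receptor Ccr9 had levels of 6.12 and 6.41.

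Survival and death genes differed in both directions. Of 23 Bcl2 family and p53 target genes, 2 were higher and 3 lower past 2-fold. The death receptor gene Fas had levels of 3.38 on the control and 1.39 on the CKO array (3.99-fold lower) and was lower past 2-fold in all 4 pairs. Pmaip1, Noxa, had levels of -0.97 and -2.23, and Zmat3 0.76 and -0.40. The pro-apoptotic Bmf (0.18 and 1.32) and Bid (0.91 and 2.04) were higher, and both lay higher still in DP control cells, at 4.15 and 2.91. The proliferation genes showed no member past 2-fold among 29, with a median of 0.00 to 2 decimals; Mki67, the Ki-67 gene, had levels of 1.69 and 2.57 (further probe 1.04) and Cdc6, a replication licensing factor, -0.82 and -1.76. Of 13 cyclin and inhibitor genes, Ccnd1 (-1.33 and -3.12) and Cdkn1c (-0.44 and -1.58) were lower past 2-fold.

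Interferon-stimulated genes were split as well: 1 of 25 was higher, 4 were lower past 2-fold, and the median was -0.09. Ifi27l2a had levels of 9.68 on the control and 8.48 on the CKO array, Oas1a 3.89 and 2.76 (further probe -1.07), Oas2 1.76 and 0.62, and Ifi44 was well above background on the control array alone. Oasl1, a relative of the Oas enzymes, was higher (2.48 and 3.68). Of 15 class I and class I-like genes, Mr1, the presenter of vitamin B metabolites to MAIT cells, was past 2-fold: it had a level of -1.18 on the control, 2.11 on the CKO, 1.81 on the DP control and 1.92 on the TCRβ-negative CKO array. Its CKO level was thus near the DP level, whereas in the CD8SP pair it was -0.56 and -0.66. In the class I light chain gene B2m the levels were 8.90 and 9.09. Among 14 Gimap and Schlafen genes, Slfn8 (1.90 and 3.53) and Slfn9 (-0.25 and 0.82) were higher, but a further probe of each differed by -0.01 and 0.31.

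Metabolic and ribosomal genes had mostly small negative differences, as bright genes had in general. All but 1 of 23 cytosolic ribosomal protein genes had a negative difference, none past 2-fold, and the median was -0.34. The 590 other named genes of at least the dimmest such gene's level had a median of -0.29, and 91.0% of them were below 0; with quantile normalization the ribosomal median was -0.02. Of 26 respiratory chain genes, 22 were below 0 with a median of -0.20, and 1 was past 2-fold. That was Cox6a2, the heart and muscle form of a cytochrome oxidase subunit, with a level of 1.85 on the control array and a signal not well above background on the CKO array (-3.18), at least 32.8-fold lower. Of 18 glycolysis genes 3 were lower past 2-fold, and 1 with normexp correction. Ldhb, a lactate dehydrogenase subunit, had levels of 6.12 and 3.02 (8.62-fold lower) and was lower past 2-fold in all 4 pairs, whereas Ldha had levels of 9.48 and 9.13. The glucose transporter Slc2a3 (3.21 and 2.17) and the aldolase Aldoc (-0.12 and -1.29) were the other members past 2-fold. Of 17 histone deacetylase and DNA methylation genes none was past 2-fold (median 0.13), with Hdac1 at 6.23 and 6.47, and of 15 housekeeping genes none was (median -0.06), although that median was 0.08 with quantile normalization alone and 0.11 with normexp correction.

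The largest differences were taken from named genes whose brighter array reached the median level, 15 in each direction. Upwards, Gm525, a predicted gene, led with levels of 0.40 on the control and 4.62 on the CKO array (18.6-fold). Next came Lalba, then the xanthine oxidase gene Xdh (-3.10 and 1.05, at least 13.5-fold), the chloride channel Best3 (-4.67 and 1.03, at least 13.3-fold), the smooth muscle actin Actg2 (-0.32 and 3.11) and Mr1. Speer4d (-1.87 and 0.95), the decarboxylase Ddc (-1.56 and 1.20), Gzma, Rag1, Jchain, Rundc3a (1.02 and 3.15), Endou, Cxxc5 (-0.06 and 2.04) and Ly6d (3.77 and 5.80) completed them. Best3 was the odd one: it was between -5.47 and -4.62 on the 8 other arrays. Downwards, besides 5 kallikreins, Cox6a2, Klra8, Klrb1c and Tff1, the list held Adh1, an alcohol dehydrogenase (1.42 and -4.42, at least 29.0-fold), Gprasp2 (1.86 and -2.95, 28.1-fold), the sulfide oxidase Sqor (1.34 and -3.78, at least 27.4-fold), Qpct, glutaminyl cyclase (1.39 and -3.20), the cyclophilin Ppic (1.35 and -3.20) and Drc1 (1.05 and -5.35). In 12 of the 15 the CKO array was not well above background, so those values are bounds. None of the 30 had a further probe well above background on both arrays. Of the 30, 6 had further probes that were dimmer, and averaging over probes took Ddc from 2.76 to 0.68, within 2-fold, and Speer4d from 2.83 to 1.03.

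Many of these differences also appeared in the other pairs, which share no array with the CD4SP pair. Whether they share animals with it is not known, so they are not independent repeats. Of the CD4SP genes that were higher, 287 of 616 (46.6%) were past 2-fold the same way in the CD8SP pair and 22 (3.57%) the opposite way. Of all genes in that pair, 6.74% were higher and 9.22% lower. In the DP pair 106 of 619 (17.1%) went the same way and 187 (30.2%) the opposite way, against 3.90% of all genes higher and 5.31% lower. In the OT-I pair 35.8% went the same way and 12.6% the opposite way, against 8.45% of all genes higher and 13.8% lower. Of the lower genes, 207 of 768 (27.0%) were lower in the DP pair, 250 of 754 (33.2%) in CD8SP and 217 of 705 (30.8%) in OT-I cells, against 5.31%, 9.22% and 13.8% of all genes lower there. The opposite way went 3.26%, 7.96% and 9.22% of them, close to the 3.90%, 6.74% and 8.45% of all genes higher there. All 4 pairs had 33 higher genes (18 with a symbol) and 83 lower ones (71 with a symbol) in common. Those higher include Lalba, Rundc3a, Slfn8, Ccl5 and Dtx1, and those lower Sqor, Gprasp2, Qpct, Ldhb, Fas, Bag3 and Trib2. By contrast 186 of the 684 higher and 540 of the 1037 lower genes were past 2-fold in no other pair. These counts include genes not well above background on either array of another pair, which could not be called there. They therefore do not count differences limited to CD4SP cells.

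Whether the CD4SP difference departs from that of the other pairs was put to a test with limma, as an interaction of genotype with CD4SP over all 9 arrays. Past 2-fold either way lay 9.2% of genes in the DP, 16.0% in the CD8SP and 22.2% in the OT-I pair. The error of the test is the spread of the genotype difference among the DP, CD8SP and OT-I pairs. Of 20271 genes tested, none (0.0%) had an adjusted p below 0.05 (Benjamini-Hochberg, two-sided), and 542 had an unadjusted p below 0.05. The fit had 2 residual degrees of freedom and called no gene in simulated data with large shifts either, so the absence of calls does not show whether the CD4SP difference departs from the others. The smallest p belonged to Klrd1, with an estimate of -6.41 (SE 0.51), Fads3, a fatty acid desaturase (-6.83), and the kallikreins Klk1b5 (-9.38, SE 1.12), Klk1 (-9.48) and Klk1b4 (-7.58); the adjusted p of all 5 was 1.00. These estimates rest on signals below background and are no bounds. In the fit without the OT-I pair, given next, the error came mostly from a variance pooled over all genes. That pooled variance had 27.8 degrees of freedom, against 3.06 in the fit to all 9 arrays. The simulation was not run for that fit, and its estimates for these kallikreins and Klrd1 also rest on signals below background. Without the OT-I pair, whose mice have another receptor and age, limma called 62 genes with 1 residual degree of freedom, 18 higher and 44 lower. The CD8SP pair, split over slides, was still in that fit, and 0 genes were called without it or without the DP pair. Of the 34 with a symbol, 31 were lower, among them 8 kallikreins and 5 Klr genes, together with Gzmb and Cox6a2.

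The DP and CD8SP control arrays, which are not part of the pair, were used to set apart genes by their level in these 2 populations. Of 425 genes at least 4-fold higher in DP than in CD8SP control cells, 406 were measured in the CD4SP pair, where 150 were higher and 27 lower past 2-fold, with a median difference of 0.70 against -0.02 over all genes. This count rested mostly on transcripts without a gene symbol. The 128 named ones had 20 higher (15.6%, background 2.33%) and 19 lower (14.8%, background 5.96%) and a median of 0.31. The 278 without a symbol had 130 higher (46.8%) and 8 lower and a median of 0.96, against 5.18% higher and a median of -0.06 over all 7838 transcripts without a symbol. Their median level was -0.68 on the CD4SP control and 0.25 on the CD4SP CKO array, and -1.13 and -0.39 in the OT-I pair, so they were higher on the CKO array in the OT-I pair too (median difference 0.65). In the DP pair their median difference was -1.34 and in the CD8SP pair 1.24, but the control arrays of those pairs chose the set. Genes at least 4-fold higher in CD8SP than in DP control cells had a median on the other side, -0.27. Of 642 measured, 26 were higher and 141 lower past 2-fold, against 3.46% and 5.24% of all genes compared. The 514 named ones had 18 higher (3.50%, background 2.33%) and 127 lower (24.7%, background 5.96%) and a median of -0.33. The lower ones include Klk1b5, Klk1, Klrd1, Tyrobp, Mpeg1, H2-Ab1 and H2-Eb1, already counted in lists above. The set is thus not limited to genes of thymocyte maturation, and the mature thymocyte and egress list had a median of -0.01.

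**Figure D5:**
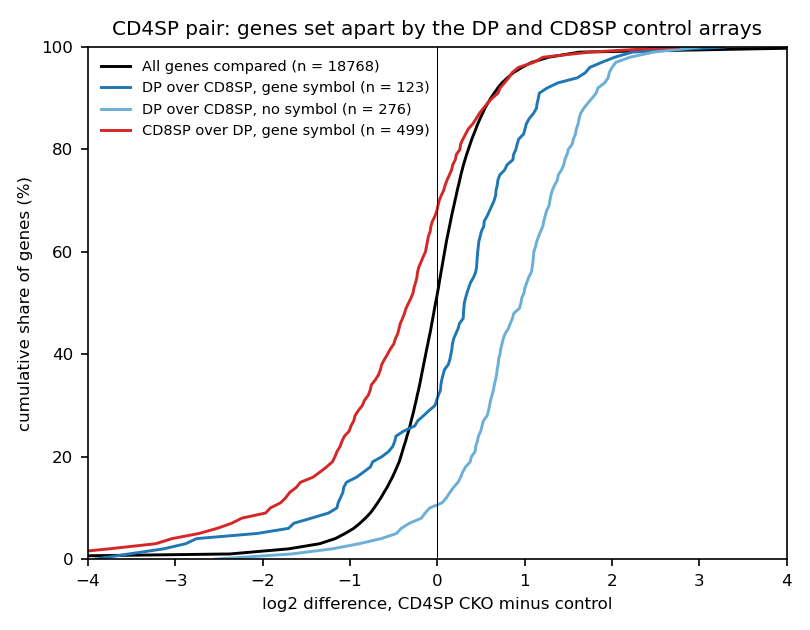
Cumulative share (vertical axis, %) of genes by their difference in the CD4SP pair (horizontal axis, CKO minus control, log2) for all genes compared (black), named and unnamed genes at least 4-fold higher in DP than CD8SP control cells (dark and light blue), and named genes at least 4-fold higher in CD8SP than DP control cells (red). The curves cross the 50% line at -0.02, 0.31, 0.96 and -0.33.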

How the data were processed

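RNA of sorted thymocytes was measured on 9 one-colour Agilent arrays, 1 per group, of which the CD4SP control and CKO arrays are compared here. Each spot's background-subtracted processed intensity was read from the deposited scanner output of Feature Extraction 10.7.1.1, per the file headers. The authors' deposited series table holds the same signal divided by each array's 75th percentile, also an intensity. Each array had 59305 spots beside its 3671 control spots, none saturated. Replicate spots were averaged, 144 of 55681 probes were dropped as outliers, and the log2 75th percentile of each array was subtracted. RefSeq accessions named 26715 probes with 20258 symbols, and 28822 stayed unnamed. The brightest probe on average over the 9 arrays stood for a gene, which was well above background where any of its probes had all spots flagged so. A gene above background on 1 array has a bound, against the lowest signal well above background there or its own signal if higher. The number of arrays limits the precision. The interaction was fitted with limma 3.58.1 in R 4.3.3 to genes well above background on at least 2 arrays, and in simulated data it called none of the genes given a shift, although it recovered the size of the shifts. Tables were made with pandas 2.3.3 in Python 3.11.15. Named genes are Brd1 and the co-receptors, the 15 largest differences in each direction among named genes of at least median brightness, up to 6 widest and the defining members of each of 38 lists, and the 5 smallest p of the interaction. Members and lists were chosen with earlier results of these data known. Alternatives were other scalings, normexp with an offset of 50, other detection filters, probe means, a 4-fold threshold and leaving out a pair. A few members counted in the lists are not reported by name here.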

Additional observations from a re-analysis of the deposited data

Results flagged for a closer look

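Klk1b5, a tissue kallikrein, was lower past 2-fold on the CKO array in the CD4SP pair and had a positive difference in the 3 other pairs. Its difference was -6.99 as a bound in the CD4SP pair (levels 3.55 on the control and -4.14 on the CKO array), 0.25 for DP, 3.02 for CD8SP and 1.78 for OT-I cells. The DP difference did not pass 2-fold, and in the CD8SP pair genotype and slide cannot be told apart. In the limma interaction of genotype with CD4SP its adjusted p was 1.00, in a design that called no gene in simulated data either.

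Cox6a2, the muscle form of a cytochrome oxidase subunit, had the same signs, with -5.03 in the CD4SP pair as a bound (levels 1.85 and -3.18), 1.23 for DP, 3.43 for CD8SP and 0.31 for OT-I cells. The OT-I difference did not pass 2-fold, and the slide limit of the CD8SP pair holds here too. With 1 array per group, neither opposition was set against a replicate error.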

How the results depend on the processing

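No paired analysis was possible because each group has 1 array. Counts past 2-fold moved most: from 684 higher and 1037 lower genes to 178 and 291 with normexp background correction and quantile normalization, 444 and 632 among genes well above background on both arrays, 1739 and 2882 with no detection filter (where the median of all genes shifted to -0.35), and 82 and 274 past 4-fold. The other scalings, the authors' deposited table, probe means and counting probes left both counts within 1.5 times. The interaction called 62 genes without the OT-I pair and 0 otherwise (419 to 1463 at an unadjusted p below 0.05 without the DP or the CD8SP pair); slide as a block takes up the CD8SP pair and equals leaving it out. The median of the genes higher in DP than CD8SP control cells, 0.70, was 0.36 with 2-fold sets and 0.23 with sets from the CKO arrays. All 30 genes with the largest differences kept their direction under every alternative that could be computed for them, 22 shrank by over 1.5-fold with normexp and quantile, and with probe means 4 did so and 29 stayed past 2-fold (Ddc, at 0.68, did not). Of 462 values of lists and single genes under alternatives, 406 moved by less than their tolerance, 56 moved further, and 0 reversed past the threshold. Medians near 0 changed sign for heat shock, cytokine receptor, Bcl2 family, proliferation, cyclin and housekeeping genes; the last went from -0.06 to 0.08 with quantile alone and 0.11 with normexp and quantile. Signals near background limit every bound given.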
